A study of Rattus norvegicus with 12 samples.

Results

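The nuclear genes of the respiratory chain and of ATP synthase were followed in rat kidney cortex across 4 dose groups of the antibiotic cephaloridine. A gene was taken when its name on the array, apart from a suffix that marks a predicted or mapped entry, began with Nduf, Uqcr, Cox4 to Cox8 or Atp5, or was Sdha, Sdhb, Sdhc or Sdhd. This gave 71 genes, read by 81 probes, out of 35536 genes or unmatched transcripts on the array. Of the 71, 69 passed the filter on dim probes and were tested, among 20759 tested genes in all, and each of the 69 was well above background on all 12 arrays. Cox6b (now Cox6b1) and Cox6c1 (now the pseudogene Cox6c-ps1) did not pass. The 69 comprised 65 subunits, of which 31 belonged to complex I, 4 to complex II, 5 to complex III, 12 to complex IV and 13 to complex V. The other 4 were Ndufaf1, an assembly factor of complex I, Cox7a2l, a factor of respiratory supercomplexes, Cox4nb (now Emc8), a part of the membrane protein insertion machinery of the endoplasmic reticulum, and Atp5s (now Dmac2l), also known as coupling factor B. They were matched by name only and are described apart.

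Male Fisher 344 rats aged 8 weeks received 1 intravenous injection of cephaloridine in saline, or saline alone, and the kidney cortex was taken 24 h later. The 4 groups of 3 animals each are called control (saline only), low, middle and high, for doses of 0, 150, 300 and 600 mg/kg, with 1 single-colour array per animal. Cephaloridine is a cephalosporin that accumulates in proximal tubule cells and injures them, and the study set subtoxic against toxic doses. All 4 groups shared the strain, sex, age, route and time.

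Oxidative phosphorylation takes place in the inner mitochondrial membrane. Complexes I and II pass electrons from NADH and succinate to ubiquinone, complex III passes them on to cytochrome c and complex IV to oxygen, while complexes I, III and IV pump protons whose return through complex V drives ATP synthesis. The proximal tubule is rich in mitochondria and relies on this pathway for the ATP that powers solute reabsorption. A minority of subunits is encoded by mitochondrial DNA. Of the 13 such genes, 0 were found on the array under their names, so only nuclear genes were followed.

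Levels are log2 processed signals minus the 75th percentile of the same array, so that a value of 0 is the level of that percentile. Differences are log2 differences between group means from limma, fitted to all 12 arrays, with the standard error (SE) of that fit. A gene was called when its Benjamini-Hochberg adjusted p over all tested genes was under 0.05. The 12 arrays were alike, with median signals of 59.0 to 68.6, 59.3% to 63.3% of probes well above background and 0 saturated spots. Slides did not balance the doses. Slide 1 held controls 1 to 3 and low 1, slide 2 held low 2 and middle 1, slide 3 held low 3 and middle 2, and slide 4 held middle 3 and high 1 to 3. Control and high animals therefore never shared a slide, and values with the slide as a block are given beside the results. In that fit the controls are linked to the other doses only through low 1, and the high animals only through middle 3. Its values against control thus rest on single animals, and in them animal and slide cannot be told apart.

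Promoter sequence was available for 62 of the 71 genes from RefSeq (build GRCr8), as the 300 bases from 250 before to 50 after the gene start. Matches to 3 short motifs were counted on both strands: CGCANGCG, the core of nuclear respiratory factor 1 (NRF1) sites, CCGGAAG, the core bound by ETS factors such as GABPA, and AAGATGG, the YY1 core. NRF1, GABPA and YY1 are known regulators of nuclear respiratory genes. The NRF1 core was found in 21 of the 62 promoters (33.9%), against 7.6% of all 33469 promoters and 15.9% of the 9608 promoters of tested genes. The ETS core was in 19 (30.6%, against 8.75% and 16.6%) and the YY1 core in 15 (24.2%, against 7.01% and 7.77%). Altogether 41 promoters held at least 1 of the 3, and matches of different motifs overlapped in 0 cases. By complex, 18 of 28 subunit promoters held a match in complex I, 4 of 4 in complex II, 3 of 4 in complex III, 5 of 10 in complex IV and 8 of 12 in complex V. A match is a stretch of letters and not evidence of binding. The 4 promoters below are examples. Sdha and Uqcrc1 fell in at least 1 comparison, Cox6b2 had the largest difference, and Cox4i1, itself not called in any comparison, shares its promoter with Cox4nb, which rose. Of the other genes called lower in high animals against control, Atp5b, Ndufv1 and Cox6a2 held 0 matches. Atp5a1 and Sdhb each held 1 ETS core and 0 NRF1 cores, and Ndufv3l held 1 NRF1 core. Whether the motifs go with a fall was not tested. Capitals mark the motif matches.
Sdha, chr1:30764303-30764602, plus strand, with 3 NRF1 cores:
Sdha: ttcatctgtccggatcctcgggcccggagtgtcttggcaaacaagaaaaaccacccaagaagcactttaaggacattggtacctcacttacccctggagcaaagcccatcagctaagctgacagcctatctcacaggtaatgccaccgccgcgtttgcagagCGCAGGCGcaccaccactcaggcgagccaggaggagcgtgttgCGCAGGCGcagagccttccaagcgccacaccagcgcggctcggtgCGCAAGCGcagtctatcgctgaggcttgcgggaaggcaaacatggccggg
Uqcrc1, chr8:118467973-118468272, plus strand, with 3 NRF1 cores and 1 YY1 core:
Uqcrc1: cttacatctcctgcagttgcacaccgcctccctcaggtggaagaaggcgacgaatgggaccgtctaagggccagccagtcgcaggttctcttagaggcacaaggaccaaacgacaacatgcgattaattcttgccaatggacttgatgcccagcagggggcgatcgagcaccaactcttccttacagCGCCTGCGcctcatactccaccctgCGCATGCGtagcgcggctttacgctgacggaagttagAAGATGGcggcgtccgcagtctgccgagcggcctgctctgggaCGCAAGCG
Cox4i1, chr19:65630133-65630432, plus strand, with 2 ETS cores:
Cox4i1: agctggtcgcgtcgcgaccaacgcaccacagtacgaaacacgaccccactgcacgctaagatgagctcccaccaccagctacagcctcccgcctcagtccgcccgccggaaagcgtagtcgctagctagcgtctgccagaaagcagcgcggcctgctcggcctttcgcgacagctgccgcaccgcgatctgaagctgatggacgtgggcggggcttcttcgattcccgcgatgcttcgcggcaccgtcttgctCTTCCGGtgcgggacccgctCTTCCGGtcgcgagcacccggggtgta
Cox6b2, chr1:78122621-78122920, plus strand, with 0 matches:
Cox6b2: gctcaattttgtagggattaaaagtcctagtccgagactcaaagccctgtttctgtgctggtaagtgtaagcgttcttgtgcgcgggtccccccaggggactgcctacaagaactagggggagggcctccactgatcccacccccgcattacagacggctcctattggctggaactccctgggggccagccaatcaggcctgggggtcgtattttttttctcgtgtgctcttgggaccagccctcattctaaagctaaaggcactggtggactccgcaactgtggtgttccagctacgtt

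At 600 mg/kg against control, differences were small, and the set was called no more often than genes at large. The subunits called lower were Ndufv3l and Ndufv1 of complex I, Sdha and Sdhb of complex II, Cox6a2 of complex IV, and Atp5a1 and Atp5b, which form the catalytic head of complex V. Called higher were the subunits Cox6b2 and Atp5g3 and the non-subunits Ndufaf1, Atp5s and Cox4nb. In counts, 7 of 69 were lower (10.1%, beside 16.8% of all tested genes) and 5 were higher (7.25%, beside 18% of all tested genes). The differences ran from -0.30 to 0.56 with a median of -0.058, while the median over all genes was -0.0021, and 46 of the 69 were lower in sign. Cox6b2 and Atp5s were the 2 members past 1.25-fold, and 0 passed 1.5-fold, beside 23.1% and 7.05% of all tested genes. The split of calls moved with the scaling: it was 6 higher and 14 lower after quantile normalization, and 5 higher and 4 lower after centring each array on its median or with the authors' value table. Without control 3 there were 2 lower, without high 2 there were 3, without high 1 there were 4 and without middle 2 there were 15, and without control 1, control 2, high 1 or high 3 there were 3 higher. With the slide as a block, limma called 0 members in either direction, beside 2.81% of all tested genes. At an unadjusted p under 0.05 in that fit there were 6 (8.7%, beside 22.1% of all tested genes). The median was then 0.00076, and the median SE rose from 0.055 to 0.12. A difference between slides and an effect of this dose therefore cannot be told apart for changes of this size.

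**Figure D1:**
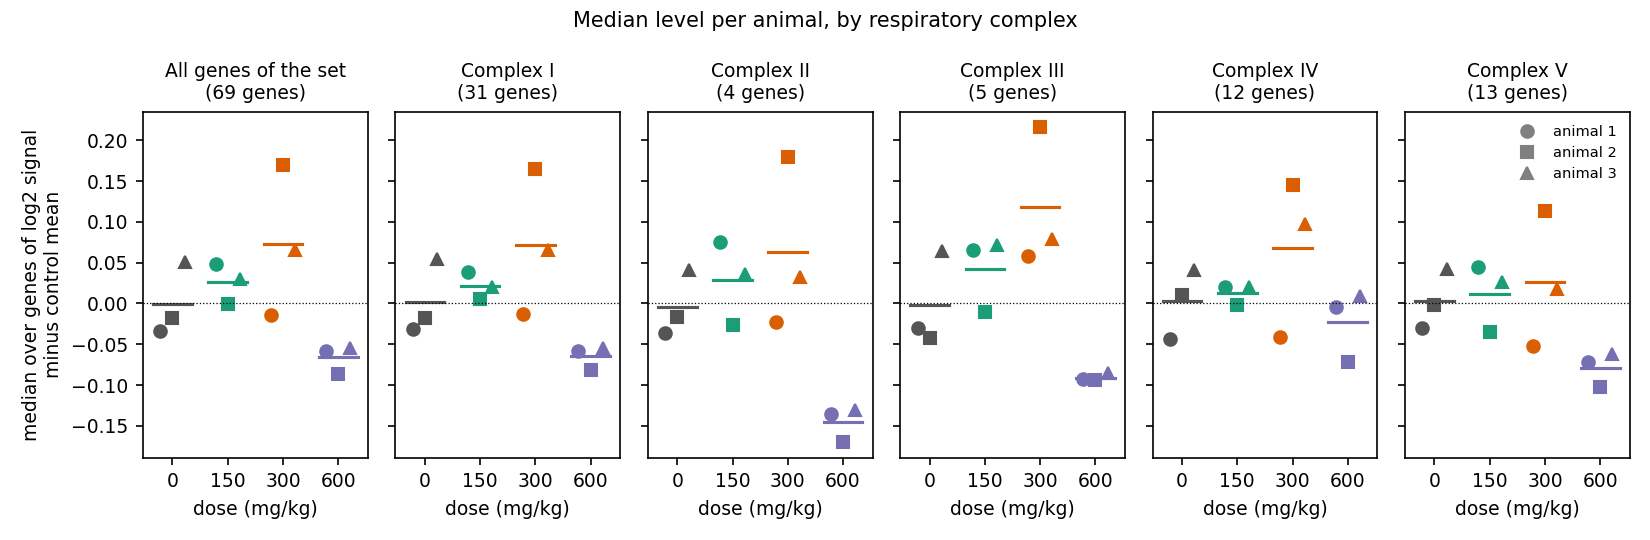
Median over the genes of each set of the log2 signal minus the control mean (vertical axis), by dose (horizontal axis, mg/kg), for all 69 genes and for the subunits of each complex. Symbols are animals and horizontal bars are means of the 3 animals; the high animals lie between -0.086 and -0.054 for all genes of the set, and middle animal 2 lies at 0.17.

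Animals within a group differed by amounts like those between groups. Relative to the control mean, the median over the 69 genes was -0.034, -0.018 and 0.051 in controls 1 to 3. It was 0.049, -0.00065 and 0.030 in the low animals, and -0.015, 0.17 and 0.065 in the middle animals. In the high animals it was -0.058, -0.086 and -0.054. The high animals were thus the lowest and the most alike, with no overlap with the other 9 animals, and the middle animals were the most spread. The median within-group SD over the set was 0.096 in the middle group and 0.051, 0.039 and 0.035 in the control, low and high groups. The same medians over all tested genes were 0.11, 0.066, 0.073 and 0.070. Middle animal 2 was the highest of its group for 54 of 69 members (42.2% of all genes), and control 3 for 63 of 69 (43.3% of all genes).

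Complex I, which takes electrons from NADH, had 2 of 31 subunits called at 600 mg/kg against control, both lower, and a median of -0.058 (-0.024 with the slide as a block). Both belong to the flavoprotein arm that binds NADH. Ndufv3l (now Ndufv3), a small accessory subunit of that arm, was 4.80, 4.81 and 4.86 in controls, 4.76, 4.76 and 4.77 in low, 4.57, 4.71 and 4.73 in middle, and 4.55, 4.47 and 4.56 in high animals. All 9 dosed animals lay below all 3 controls. The difference at 600 mg/kg was -0.30 (SE 0.050, n = 3 per group, limma adjusted p = 0.0017), and with the slide as a block it was -0.39 (adjusted p = 0.11). It kept its call under the other 11 of 12 alternatives and without any single animal. At 300 mg/kg it was -0.15 (adjusted p = 0.069) and at 150 mg/kg -0.061 (adjusted p = 0.73), neither of which was called.

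Ndufv1, which carries the flavin that accepts electrons from NADH, was 3.57, 3.52 and 3.58 in controls and 3.40, 3.43 and 3.35 in high animals, with no overlap. The difference was -0.17 (SE 0.050, limma adjusted p = 0.026), and the call was lost under 5 of 12 alternatives and without control 1, control 3, high 1 or high 3 (adjusted p up to 0.094). Ndufs1, the iron-sulfur subunit next along the electron path, was 3.15, 3.08 and 3.30 in controls and 2.89, 3.03 and 3.14 in high animals. Those ranges overlapped, and its difference of -0.15 (SE 0.086, limma adjusted p = 0.20) was not called.

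Complex II links the citrate cycle to the chain, and all 4 of its subunits were lower in sign at 600 mg/kg with the high animals below every control. Such separation was not particular to complex II: high and control animals did not overlap, in either direction, in 35 of 65 subunits, and in 16 of 31 of complex I. The share over all tested genes was not counted, so these counts do not tell whether any complex or the set stood out. The median of the 4 complex II subunits was -0.15, and 2 of 4 were called. The slide block gave a median of 0.014, with 2 of 4 lower in sign and 0 called. Sdha, the flavoprotein that oxidises succinate, was 7.29, 7.32 and 7.37 in controls, 7.38, 7.27 and 7.30 in low, 7.27, 7.37 and 7.38 in middle, and 7.15, 7.08 and 7.19 in high animals. Low and middle animals overlapped the controls, and the high animals lay below all others. The difference was -0.19 (SE 0.050, limma adjusted p = 0.016), and the call was lost without control 3 or high 2 (adjusted p up to 0.059). It was also lost under 3 of 12 alternatives, which were the median of each array, the authors' value table and the slide as a block (-0.15, adjusted p = 0.455). Sdhb, the iron-sulfur subunit, was 5.63, 5.61 and 5.67 in controls and 5.38, 5.40 and 5.43 in high animals, a difference of -0.23 (SE 0.080, limma adjusted p = 0.047). The middle animals were 5.58, 5.83 and 5.51 and spread to both sides of the controls. The Sdhb call was lost without any 1 of the controls, the high animals, low 1, low 3 or middle 1 (adjusted p up to 0.12), and under 5 of 12 alternatives, among them the slide as a block, where the difference turned to 0.081 (adjusted p = 0.67). The membrane anchors Sdhc and Sdhd differed by -0.11 (SE 0.046, adjusted p = 0.093) and -0.080 (SE 0.054, adjusted p = 0.28) in the same limma fit and were not called.

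Complex III, which passes electrons from ubiquinol to cytochrome c, had 0 of 5 subunits called at 600 mg/kg against control and a median of -0.097 (-0.014 with the slide as a block), with a limma adjusted p of 0.051 for the Rieske iron-sulfur protein Uqcrfs1 (-0.13, SE 0.048). The core protein Uqcrc1 differed by -0.10 (SE 0.054, adjusted p = 0.17) and was called only after quantile normalization (-0.13, adjusted p = 0.048). The hinge protein Uqcrh was the one member with a positive sign, 0.076 (SE 0.050, adjusted p = 0.26).

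Complex IV, cytochrome c oxidase, held 6 subunits on either side of 0, with a median of -0.032 (0.0019 with the slide as a block) and 1 call each way among 12. Both calls were tissue-restricted isoforms. Cox6b2, an isoform best known from testis, was the largest difference of the set. It was -4.02, -3.62 and -3.72 in controls, -3.74, -3.85 and -3.72 in low, -3.83, -3.44 and -3.71 in middle, and -2.99, -3.33 and -3.36 in high animals. These levels lay far below the 75th percentile of the array, though the probe was well above background on all 12 arrays. The high animals lay above all others, and the controls were widely spread (SD 0.21). The difference was 0.56 (SE 0.13, 1.48-fold, limma adjusted p = 0.0094), and it ran from 0.25 to 0.68 over the 12 alternatives. It was called under 11 of 12 alternatives and without any single animal, and with the slide as a block it was 0.68 (adjusted p = 0.26). Cox6a2, the heart and skeletal muscle isoform, was -2.10, -2.06 and -2.06 in controls and -2.29, -2.31 and -2.24 in high animals, with no overlap. The difference was -0.20 (SE 0.060, limma adjusted p = 0.024), lost under 3 of 12 alternatives and without control 2, control 3, high 1 or high 2 (adjusted p up to 0.070). Of 8 markers of skeletal and cardiac muscle, 2 passed the dim filter, and their summed signal, in units of the array's 75th percentile, was 0.81 to 0.87 in controls and 1.04 to 1.17 in high animals; 1 of the 2, the oxygen carrier Mb, was called higher (0.44, SE 0.11), though with the slide as a block it was -0.22 (adjusted p = 0.37). The sum rests on only 2 markers, and the part of muscle tissue in the level of Cox6a2 was not tested.

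The isoform pairs of complex IV gave no further calls at 600 mg/kg against control. Cox4i1, the common form of subunit 4, differed by -0.066 (SE 0.049) and Cox4i2, the form raised by low oxygen, by 0.013 (SE 0.064). Cox6a1, the liver-type partner of Cox6a2, differed by 0.033 (SE 0.055), and Cox6b1, the common partner of Cox6b2, did not pass the dim filter. Cox7a2 differed by -0.14 (SE 0.068), Cox8a by 0.0033 (SE 0.062) and Cox8h (now Cox8b), the muscle form of subunit 8, by -0.076 (SE 0.079). The limma adjusted p of these 6 ran from 0.14 to 0.97. Cox7a2 was called lower after normexp background correction (adjusted p = 0.042) and in the fit to these 2 groups alone (adjusted p = 0.034).

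Complex V had 2 of 13 subunits called lower and 1 higher at 600 mg/kg against control, with a median of -0.090 (0.013 with the slide as a block). Atp5b (now Atp5f1b), the catalytic beta subunit, was 6.62, 6.52 and 6.62 in controls, 6.64, 6.51 and 6.47 in low, 6.52, 6.47 and 6.37 in middle, and 6.28, 6.41 and 6.32 in high animals. The high animals lay below the controls, with middle 3 among them. The difference was -0.25 (SE 0.063, limma adjusted p = 0.011) and was called without any single animal, but with the slide as a block it was 0.030 (adjusted p = 0.91). Atp5a1 (now Atp5f1a), the alpha subunit that surrounds the same catalytic core, was 6.88, 6.82 and 6.94 in controls and 6.67, 6.65 and 6.71 in high animals, a difference of -0.20 (SE 0.054, limma adjusted p = 0.017). Its call was lost after quantile normalization, with the slide as a block (-0.051, adjusted p = 0.85), and without control 3 or high 2 (adjusted p up to 0.062).

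Atp5g1, Atp5g2 and Atp5g3 (now Atp5mc1, Atp5mc2 and Atp5mc3) encode the same mature subunit c of the proton-driven ring, and Atp5g3 alone was called. It was 3.85, 3.84 and 3.96 in controls, 4.06, 4.19 and 4.12 in low, 4.19, 4.26 and 4.37 in middle, and 4.17, 4.01 and 4.10 in high animals. All 9 dosed animals lay above all 3 controls. The difference was 0.24 (SE 0.063, adjusted p = 0.27) at 150 mg/kg, 0.39 (1.31-fold, adjusted p = 0.0073) at 300 mg/kg and 0.21 (adjusted p = 0.026) at 600 mg/kg in the same limma fit. With the slide as a block these were 0.17, 0.25 and -0.025, none of them called. The call at 300 mg/kg was also lost in the fit to the control and middle groups alone. The call at 600 mg/kg was also lost with no filter on dim probes and without control 1, control 2, high 1 or high 3 (adjusted p up to 0.096). Atp5g1 differed by 0.031 and Atp5g2 by 0.0042 at 600 mg/kg, and by 0.19 (adjusted p = 0.074) and 0.10 (adjusted p = 0.35) at 300 mg/kg. Whether the 3 genes differed from one another was not tested.

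**Figure D2:**
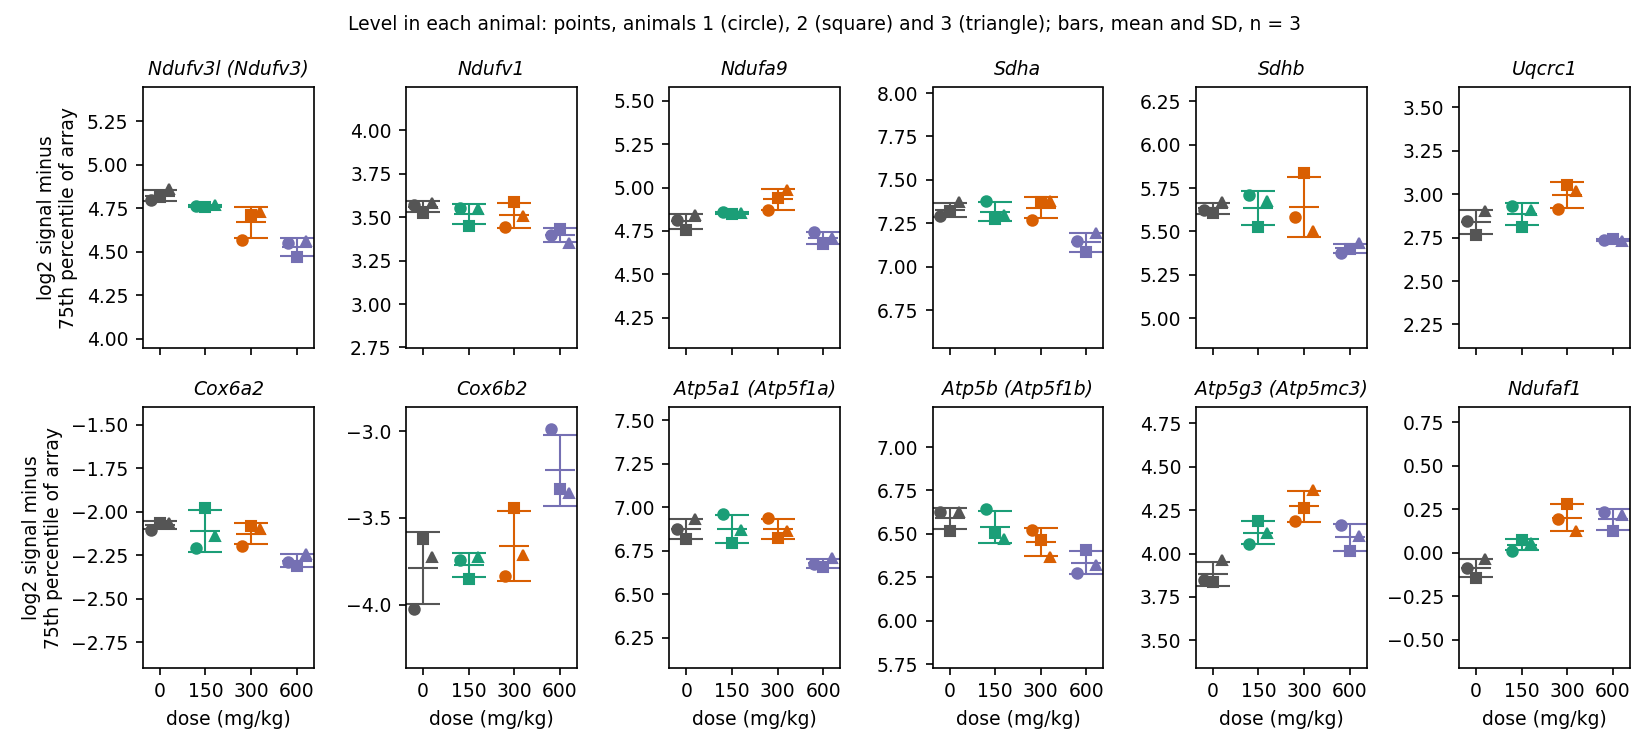
Log2 signal minus the 75th percentile of the array (vertical axis, a span of 1.5 in each panel) by dose (horizontal axis, mg/kg) for 12 genes. Points are animals, bars the mean and SD of 3; in Cox6b2 the high animals lie above all others, in Sdha below all others, and in Atp5g3 and Ndufv3l every dosed animal lies to one side of the controls.

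The 4 genes that are not subunits were all higher in sign than control at each dose, with a median of 0.24 at 600 mg/kg and 0.22 at 300 mg/kg. Ndufaf1, which helps build the membrane arm of complex I, was -0.09, -0.14 and -0.04 in controls, 0.01, 0.08 and 0.05 in low, 0.19, 0.28 and 0.13 in middle, and 0.24, 0.13 and 0.22 in high animals. No dosed animal overlapped the controls. Its differences were 0.14 (adjusted p = 0.42), 0.29 (adjusted p = 0.011) and 0.28 (adjusted p = 0.0028) at the 3 doses in order, each with SE 0.053 in limma. Both calls held without any single animal, but that at 300 mg/kg was lost in the fit to the control and middle groups alone. With the slide as a block they were 0.10, 0.27 and 0.34, none of them called. Atp5s was -0.45, -0.47 and -0.31 in controls, -0.22, -0.20 and -0.09 in middle, and 0.01, -0.15 and -0.11 in high animals, with no overlap between controls and either group. It differed by 0.24 (adjusted p = 0.033) at 300 mg/kg and 0.32 (adjusted p = 0.0031) at 600 mg/kg, SE 0.062 in limma, and the call at 300 mg/kg was lost under 5 of 12 alternatives and without control 1, control 2, middle 2 or middle 3. Cox7a2l was called at 300 mg/kg (0.20, SE 0.048, adjusted p = 0.025; lost under 4 of 12 alternatives and without control 1, control 2 or middle 2) and differed by 0.074 (adjusted p = 0.26) at 600 mg/kg. Cox4nb was 2.11, 2.05 and 2.12 in controls and 2.31, 2.26 and 2.28 in high animals, a difference of 0.19 (SE 0.063, limma adjusted p = 0.040) whose call was lost under 3 of 12 alternatives and without any 1 of the control, low or high animals (adjusted p up to 0.12). It lies head to head with Cox4i1, and the promoter windows of the pair, on opposite strands of chromosome 19, share 247 of their 300 bases, including the ETS cores printed above for Cox4i1. Over the same doses Cox4i1 was 4.54, 4.46 and 4.55 in controls and 4.50, 4.41 and 4.44 in high animals.

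At 300 mg/kg against control, 5 members were called higher (7.25%, beside 8.21% of all tested genes) and 0 lower (beside 4.81%; 1 at an unadjusted p under 0.05 in limma). The calls were Atp5g3, the non-subunits Ndufaf1, Atp5s and Cox7a2l, and Ndufs3, a core subunit of complex I on the path to ubiquinone (0.18, SE 0.050, limma adjusted p = 0.047), whose call was lost under 7 of 12 alternatives and without any 1 of 9 animals, all but control 3, low 2 and middle 1. The median over the set was 0.060, beside 0.024 over all genes, and 56 of 69 were higher in sign. The median fell to 0.016 after quantile normalization, with 4 calls higher and 1 lower. It was 0.11 with the slide as a block, which called 0 members, beside 0.217% of all tested genes. At an unadjusted p under 0.05 in that fit there were 10 (14.5%, beside 18.2% of all tested genes). The count of calls higher was 11 without middle 1, and 2 without control 1, control 2 or middle 2, and 3 without middle 3. The SE is shared by all 4 groups, while the median SD of the set was 0.096 in the middle group and 0.035 to 0.051 in the others. Fitted to the control and middle groups alone, limma called 0 members, beside 1.27% of all tested genes.

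At 150 mg/kg against control, limma called 0 members in either direction, beside 0.0578% of all tested genes called higher and 0.0434% called lower. At an unadjusted p under 0.05 there were 5, all higher, and the lowest adjusted p was 0.27. The median was 0.019 beside 0.014 over all genes, and it was -0.0043 after quantile normalization. The differences ran from -0.062 to 0.24, the highest being that of Atp5g3.

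**Figure D3:**
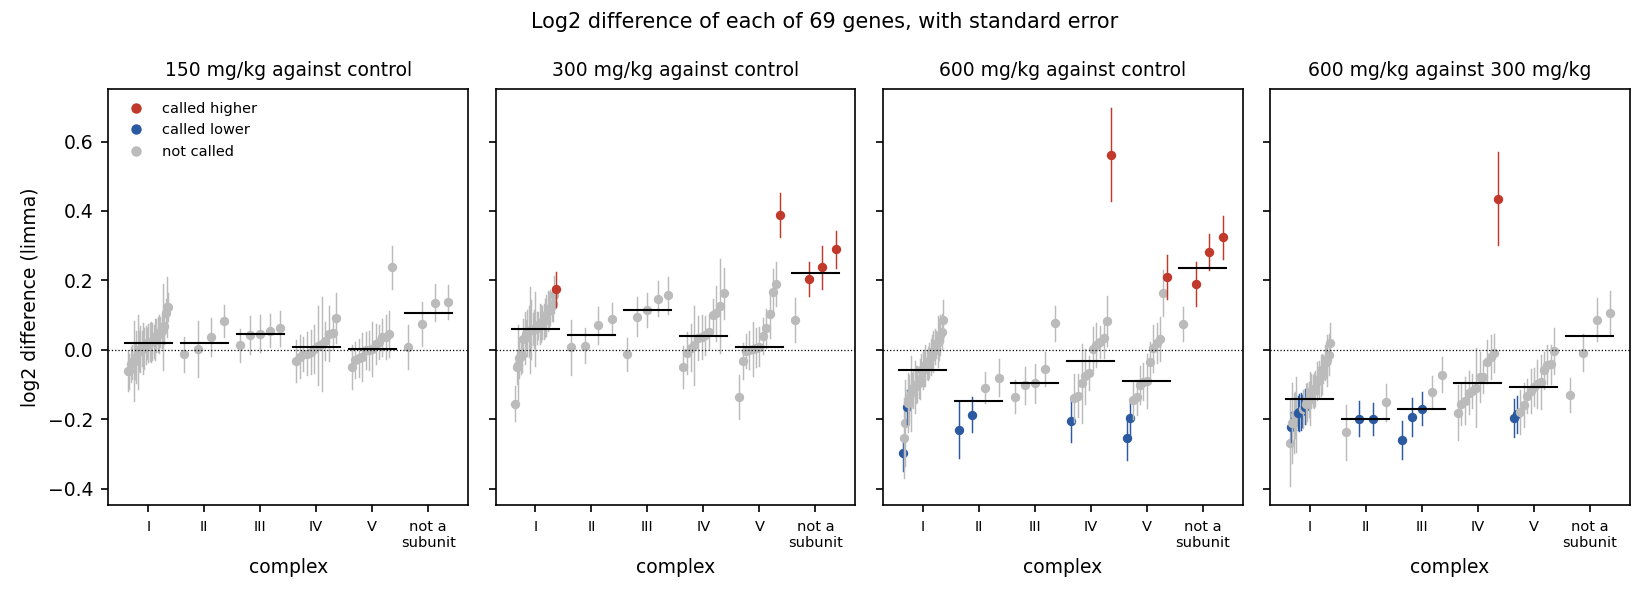
Log2 difference from limma (vertical axis) of each of the 69 genes with its standard error, grouped by complex (horizontal axis), in 4 comparisons. Black bars are medians; red marks genes called higher and blue those called lower, and in the comparison of 600 with 300 mg/kg 65 of 69 points lie below 0.

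The comparison of 600 mg/kg with 300 mg/kg does not use the control mean, and more subunits were called in it. Against 300 mg/kg, 13 members were lower at 600 mg/kg (18.8%, beside 12.9% of all tested genes) and 1, Cox6b2, was higher (1.45%, beside 9.61%). The lower genes were all subunits: Ndufa6, Ndufa8, Ndufa9, Ndufb6, Ndufs3 and Ndufs8 of complex I, Sdha and Sdhc of complex II, Uqcrb, Uqcrc1 and Uqcrc2 of complex III, and Atp5a1 and Atp5c1 of complex V. The median was -0.12 beside -0.023 over all genes, and 65 of 69 were lower in sign, beside 55.1% of all genes. At an unadjusted p under 0.05 there were 34 (49.3%, beside 35.7% of all genes). By complex the medians were -0.14 for I, -0.20 for II, -0.17 for III, -0.094 for IV and -0.11 for V. The sizes were small here too: Cox6b2 was the 1 member past 1.25-fold, beside 15.6% of all genes.

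This comparison rests in part on how high the middle animals stood and on the scaling. The mean was highest in the middle group for 49 of 69 members (71%, beside 27.9% of all genes), but without middle 2 for 23 (33.3%, beside 26.9%). It was lowest in the high group for 45 (65.2%, beside 37.9%), and without middle 2 for 44 (63.8%, beside 37.5%). The count of members called lower was 6 without middle 2, 5 without high 1 or high 3, 3 without high 2 and 23 without middle 1. It was 7 after quantile normalization, where the median was -0.052, and 1 when the model was fitted to these 2 groups alone. Middle 3 shared slide 4 with the high animals. Within that slide the mean of the 3 high animals minus middle 3 had a median of -0.11 over the set (-0.028 over all genes), with 62 of 69 members lower. With the slide as a block, the fit gives this same contrast, of the 3 high animals against middle 3 alone. It adds no separate support. The block's median was -0.11, and 2 members were called lower, Uqcrc1 and Ndufa9 (2.9%, beside 9.75% of all tested genes called either way).

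Those 2 genes were named after their values were seen. Uqcrc1, a core protein of complex III with 3 NRF1 cores in the promoter printed above, was 2.85, 2.77 and 2.90 in controls, 2.93, 2.81 and 2.91 in low, 2.91, 3.05 and 3.02 in middle, and 2.74, 2.74 and 2.73 in high animals. The high animals lay below all others and the middle animals above all controls. High minus middle was -0.26 (SE 0.054, 1.20-fold lower, limma adjusted p = 0.0072). With the slide as a block, which sets the high animals against middle 3 alone, it was -0.28. The call held under all 12 alternatives and without any single animal (adjusted p at most 0.039). Ndufa9, an accessory subunit near the ubiquinone site of complex I with 1 YY1 core in its promoter, was 4.81, 4.76 and 4.84 in controls, 4.87, 4.94 and 4.99 in middle, and 4.75, 4.68 and 4.71 in high animals. The 3 groups did not overlap. High minus middle was -0.22 (SE 0.043, limma adjusted p = 0.0056), and the call was lost in 1 of 12 alternatives, the fit to these 2 groups alone (adjusted p = 0.054). In the same comparison Sdha was -0.20 (SE 0.050, adjusted p = 0.018; lost under 3 of 12 alternatives and without high 2) and Atp5a1 -0.20 (SE 0.054, adjusted p = 0.025; lost under 4 of 12 alternatives and without middle 1 or any high animal). Cox6b2 was 0.44 (SE 0.13, adjusted p = 0.042), and its call was lost under 8 of 12 alternatives and held without control 1, control 2 or middle 2 but not without any other animal. By contrast, Atp5b, -0.12 (SE 0.063, adjusted p = 0.21), Ndufs1, -0.21 (SE 0.086, adjusted p = 0.11), and Cox4i1, -0.12 (SE 0.049, adjusted p = 0.11), were not called by limma.

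**Figure D4:**
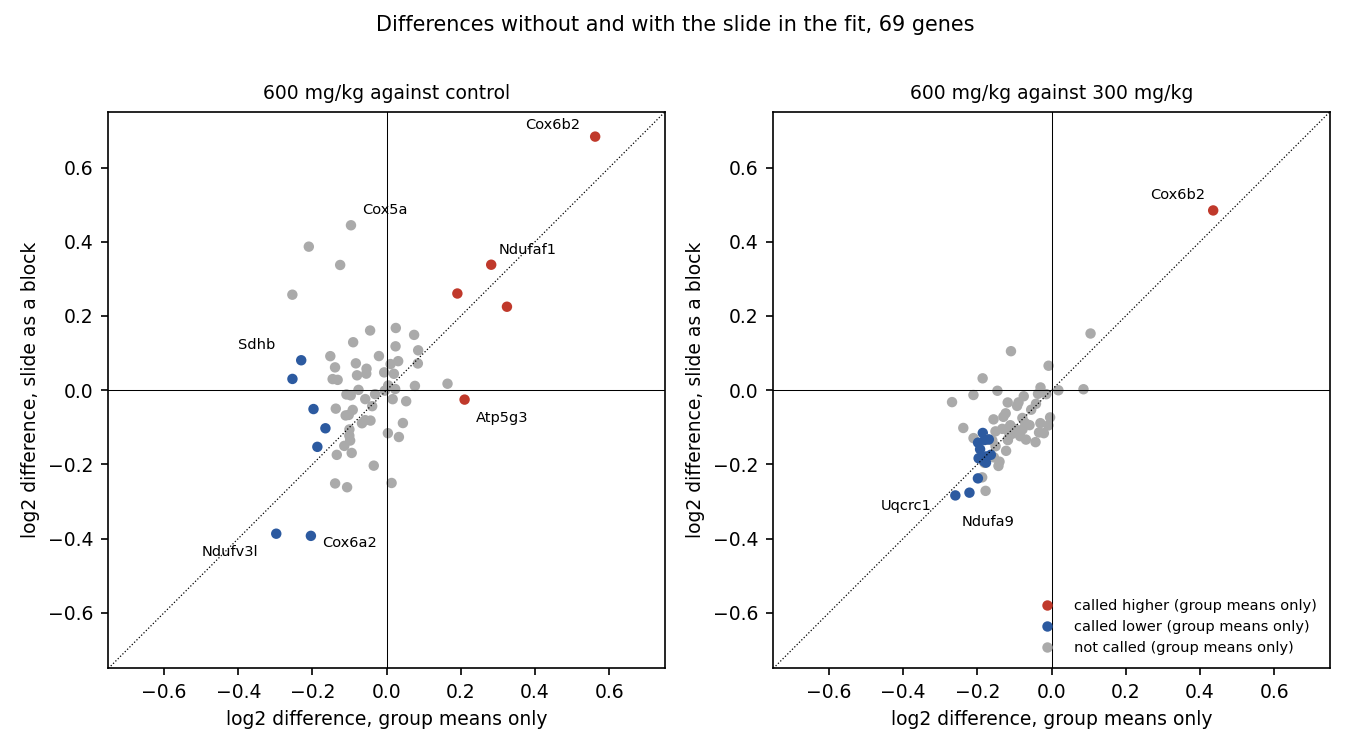
Log2 difference of each of the 69 genes from the fit of group means (horizontal axis) and from the fit with the slide as a block (vertical axis), for 600 mg/kg against control and against 300 mg/kg. The dotted line marks equal values; against control 43 of 69 genes keep their sign, against 300 mg/kg 64 of 69.

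Adding the slide to the fit moved some subunits far more than others. For 600 mg/kg against control, that fit reaches the controls only through low 1 and the high animals only through middle 3. Against control, 43 of 69 members kept their sign at 600 mg/kg with the slide as a block (73.4% of all genes did), and 27 were lower in both fits. Against 300 mg/kg, where the block sets the high animals against middle 3 alone, 64 of 69 kept it (81.7% of all genes). Ndufb2, Cox5a and Ndufab1, with SEs of 0.12, 0.11 and 0.11, were among the most variable and were singled out after their values were seen. Ndufb2, an accessory subunit of the membrane arm of complex I, was 5.37, 5.43 and 5.54 in controls, 5.56, 5.23 and 5.45 in low, 5.35, 5.65 and 5.20 in middle, and 5.17, 5.12 and 5.28 in high animals. Low 2 and middle 3 fell near the high animals, and low 1 and middle 2 above every control. Cox5a, a subunit of complex IV, followed the same order within those groups, with 5.18, 4.85 and 5.07 in low and 5.03, 5.25 and 4.82 in middle animals. So did Ndufab1, the acyl carrier subunit of complex I, with 4.20, 3.97 and 4.16 and with 4.13, 4.43 and 3.96. At 600 mg/kg against control these 3 went from -0.25, -0.096 and -0.13 (Ndufb2, Cox5a, Ndufab1) to 0.26, 0.44 and 0.34 with the slide as a block, and limma called none in either fit. A cause of this shared pattern was not tested.

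Genes with more than 1 probe mostly gave like values, with exceptions. For Ndufa2, the probe not used for the gene was called lower at 600 mg/kg against control (-0.26, SE 0.063, limma adjusted p = 0.011), while the brighter one was not (-0.14, adjusted p = 0.13). For Uqcrb, 1 of 3 probes was called lower (-0.17, SE 0.047, adjusted p = 0.020), and against 300 mg/kg all 3 were lower, by -0.23, -0.30 and -0.19 (limma adjusted p of 0.0077, 0.018 and 0.033). Both Ndufa9 probes were called lower against 300 mg/kg (-0.22 and -0.17), while at 300 mg/kg against control the other probe was called higher (0.16, limma adjusted p = 0.040) and the one used was not (0.13, adjusted p = 0.083). The probes of Ndufc2, a membrane arm subunit of complex I, differed by -0.083 and 0.15 at 600 mg/kg and by 0.073 and 0.59 at 300 mg/kg against control, with an SE of 0.19 for the other probe and 0 of these called. For Cox8h, another probe had an SE of 0.54 and the last did not pass the dim filter.

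Genes around the chain did not move as 1 block. The lists were chosen with earlier results known and describe counts, to be read beside the 16.8% of all tested genes called lower and the 18% called higher at 600 mg/kg against control, and the 12.9% called lower against 300 mg/kg. Of 13 citrate cycle genes, 5 were lower and 2 higher at 600 mg/kg against control (median -0.086), among them Suclg2, a subunit of succinyl-CoA ligase (-0.36, SE 0.042), Idh3g of isocitrate dehydrogenase (-0.31, SE 0.051) and Cs, citrate synthase (0.32, SE 0.044). Against 300 mg/kg, 8 of the 13 were lower and 0 higher by limma (median -0.18). The citrate cycle medians with the slide as a block were -0.011 against control, with 0 called, and -0.15 against 300 mg/kg, with 1 called lower. Of 26 assembly factors and electron carriers outside the naming rule, 6 were higher and 2 lower (median 0.032), including the ATP synthase inhibitor Atp5if1 (0.37, SE 0.080), the complex III chaperone Bcs1l (0.32, SE 0.048) and the electron carrier Etfdh (-0.28, SE 0.078). Of 10 ubiquinone synthesis genes, 3 were higher and 1 lower. Of 8 pyruvate dehydrogenase genes, 1 was higher, the inhibitory kinase Pdk1 (0.38, SE 0.11), and 2 were lower, Pdp2 and Pdk2. Of 15 genes of mitochondrial biogenesis and DNA upkeep, 5 were higher and 4 lower: the coactivator Ppargc1a fell (-0.54, SE 0.099) and the related Pprc1 rose (0.56, SE 0.083), while Gabpa, which binds the ETS core, rose (0.27, SE 0.060). Fitted with the slide as a block, limma called 0 genes of the assembly, ubiquinone and biogenesis lists, whose medians were then 0.10, 0.12 and 0.017, and of the pyruvate dehydrogenase list (median 0.072) it called Pdk1 higher and 0 lower.

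Markers of the cell types in cortex moved alongside. Their counts at 600 mg/kg against control are to be read beside 16.8% of all tested genes called lower and 18% called higher. All 10 proximal tubule markers were well enough detected to be tested, and 8 of 10 were lower at 600 mg/kg against control, with a median of -0.44, beside the median of -0.058 for the respiratory set. Their summed signal, in units of the array's 75th percentile, was 912 to 957 in controls, 877 to 967 in low, 851 to 890 in middle and 697 to 735 in high animals. With the slide as a block the median was -0.24 and 2 were called lower. The phosphate carrier Slc34a1 (-0.59, SE 0.046) and the inositol-degrading enzyme Miox (-0.69, SE 0.065) were among the 8. In the other direction, 3 of 3 distal convoluted tubule markers were higher (sums of 25.9 to 27.3 in controls and 39.6 to 46.8 in high animals), as were 3 of 5 intercalated cell markers (38.0 to 41.9 and 45.0 to 49.0), 2 of 5 thick ascending limb markers (361 to 396 and 400 to 418), 1 of 5 principal cell markers (58.2 to 61.4 and 60.5 to 62.2), 3 of 5 macrophage markers (11.7 to 12.7 and 12.9 to 15.2) and 2 of 2 fat markers (1.004 to 1.11 and 1.41 to 1.54). Of 5 endothelial markers 4 were lower (53.6 to 56.6 and 42.6 to 45.0), and 1 of 4 podocyte markers was lower (4.41 to 4.67 and 4.33 to 4.52). Under the slide block 1 distal convoluted tubule marker was called higher, and 0 of the intercalated cell, thick ascending limb, principal cell, macrophage, fat, endothelial and podocyte markers were called in either direction. Proliferation markers were called higher in 1 of 4 at 600 mg/kg against control. They were called lower in 4 of 4 at 300 mg/kg (4.81% of all tested genes, median -0.77, 0 called with the slide as a block). At 150 mg/kg 1 of 4 was called lower (0.0434% of all tested genes). Higher calls in 4 of 4 at 600 against 300 mg/kg (9.61% of all tested genes) thus include the lower level in the middle group. These markers had a median of 1.12 in that comparison, and of 1.42 with the slide as a block (high animals against middle 3 alone). Their sums were 6.16 to 7.32 in controls, 3.88 to 4.26 in low, 3.25 to 4.62 in middle and 7.31 to 9.04 in high animals. In whole cortex, fewer cells of a type and less RNA per cell cannot be told apart, and the part of cell makeup in the respiratory values was not tested.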

How the data were processed

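Signals came from 12 single-colour Agilent arrays, 1 per animal. The scanner images were read by Agilent Feature Extraction, version 9.1.3.1 per the file headers. The deposited processed, mean and background signals are linear intensities, and the deposited value table is a linear ratio: the processed signal, floored at 5, divided by 1 constant per array, as 40749 probes spotted once matched within 0.1%. All its 12 columns were used and 0 were unused. Its direction is known, and its column medians ran from 1.003 to 1.005.

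Log2 processed signals, averaged over spots of a probe, were centred on each array's 75th percentile. The brightest probe stood for a gene if 1 group or more had it well above background in all 3 animals. Probes were named through accession (48 of 81 probes of the set), symbol (28) or older symbol (5) in RefSeq tables (GRCr8). Group means were fitted with limma 3.58.1 in R 4.3.3 (8 residual degrees of freedom, 5 with slide as a block), checked on simulated data. SE and SD rest on n = 3; depth does not apply to arrays, and their number limits precision. The labels name 3 animals per group.

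The members, lists, motifs and naming rule were chosen with earlier results of these data known. Named were the called members that changed most per complex at 600 mg/kg, 1 fixed subunit per complex and isoform pairs; others are said to be chosen later. Alternatives were 3 other scalings or background corrections, the value table, 4 probe rules and 4 other fits, plus leaving out each animal.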

Additional observations from a re-analysis of the deposited data

How the results depend on the processing

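Counts and medians of the set were recomputed under 12 alternatives and without each animal; 227 of these values stayed close to those reported and 61 moved. At 600 mg/kg against control the 5 members called higher became 3 with no filter on dim probes and 0 with the slide as a block. The 7 called lower became 14 after quantile normalization, 4 with the median of each array, 4 with the value table, 4 with no filter on dim probes, 12 with only the groups compared and 0 with the slide as a block, whose median of members was 0.00076. At 300 mg/kg the 5 called higher became 10 after normexp background correction, 2 with no filter, and 0 with only the groups compared or the slide as a block; 1 was called lower after quantile normalization or normexp correction. At 600 against 300 mg/kg the 1 called higher (Cox6b2) became 0 after quantile normalization, with the median of each array, the value table, no filter, only the groups compared, the slide as a block or the scan day as a block. The 13 called lower became 7, 7, 7, 3, 1, 2 and 21 in the same order, and the median was -0.052 after quantile normalization. The causes were not tested.

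With the replicate number as a block, 4 members were called higher and 5 lower at 600 mg/kg, 2 higher at 300 mg/kg, and 0 higher and 7 lower at 600 against 300 mg/kg. Same-numbered animals did not deviate together (correlations of deviations of -0.23 to 0.12, median -0.0057, over 18 pairs), so the samples share only a number.

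Without 1 animal, at 600 mg/kg 3 to 6 were called higher and 2 to 15 lower; at 300 mg/kg 2 to 11 higher and 0 lower; and at 600 against 300 mg/kg 0 to 2 higher and 3 to 23 lower. At 600 mg/kg against control Sdhb (0.081), Atp5b (0.030) and Atp5g3 (-0.025) reversed with the slide as a block. That fit links the controls and the high animals only through low 1 and middle 3. Differences near the median SE of 0.055 were not detectable with 3 animals per group.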

Other observations

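Of 61 tested genes of the mitochondrial ribosome, which translates the subunits encoded by mitochondrial DNA, 15 were called higher and 1 lower at 600 mg/kg against control by limma, with a median of 0.084; 18% of all tested genes were called higher. The largest were Mrps27 (0.42, SE 0.055), Mrpl38 (0.40, SE 0.074) and Mrpl23 (0.28, SE 0.067). With the slide as a block the median was 0.13 and 0 were called. At 300 mg/kg against control 5 were higher and 0 lower, beside 8.21% and 4.81% of all tested genes, with a median of 0.11. At 600 against 300 mg/kg 2 were higher and 3 lower, beside 9.61% and 12.9% of all tested genes, with a median of -0.023.

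Of 15 protein import genes, 4 were higher and 0 lower at 600 mg/kg against control by limma (median 0.13): the matrix chaperonin Hspd1 (0.27, SE 0.040), the small carrier Timm8a1 (0.24, SE 0.055), and the outer membrane receptor and channel genes Tomm70 (0.22, SE 0.041) and Tomm40 (0.20, SE 0.057). Their median with the slide as a block was 0.054, and 0 were called. Of 8 mitochondrial antioxidant genes, 1 was higher, Gpx4 (0.16, SE 0.053), and 2 were lower, Txnrd2 (-0.23, SE 0.069) and Nnt (-0.15, SE 0.048); with the slide as a block the median was -0.030 and 0 were called. The import and antioxidant counts are to be read beside 18% of all tested genes called higher and 16.8% called lower. Whether any list differed from the respiratory set was not tested.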
